A study of Mus musculus with 24 samples.

Results

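Genes of fatty acid oxidation and targets of the receptor PPAR alpha were followed in mouse kidney, in males and females sampled at mid active or mid inactive period. The set was a written list of 36 genes, kept where the mean over all libraries reached 10 normalized counts. All 36 were found among the 56748 identifiers of the deposited table and all passed, as did 17333 genes in total. The 24 poly A RNA-seq libraries, each made from 100 ng of deidentified total RNA of kidney, fell into 4 groups of 6. These were active males, inactive males, active females and inactive females. No group carried a labelled allele, transgene or drug, and the label of treatment gives the period alone. Strain, age, clock hours and feeding were not given in the sources used here, nor was it said whether each library came from a separate animal. The p-values therefore measure the spread between these libraries, which may be technical in part.

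Fatty acids enter the cell through carriers such as Cd36, are bound by small carrier proteins and are activated to acyl-CoA. The carnitine shuttle moves long-chain acyl groups into mitochondria, where rounds of dehydrogenation, hydration, a further oxidation and thiolysis release acetyl-CoA, with electrons passed on through the electron transfer flavoprotein. Peroxisomes shorten very long and branched chains. PPAR alpha is a nuclear receptor that binds fatty acids and turns on many of these genes as a partner of the retinoid X receptor. In the kidney the proximal tubule holds most of this machinery and draws much of its energy from fatty acids.

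Values are the authors' normalized counts, that is gene counts divided by a size factor per library, and whole reads could be recovered from them, 31.04 to 39.30 M per library. Log2 folds are of the count plus 1, from limma over all 24 libraries, given ± SE. A gene passed at a Benjamini-Hochberg adjusted p under 0.05 over all 17333 genes. Of 5 genes listed as a check of sex and 5 of the clock, some separated the libraries without overlap. These were Ddx3y and Xist for sex, and Arntl, Nr1d1 and Dbp for the period. All 5 sex genes passed between the sexes in both periods. Of the 5 clock genes, 5 passed by period in males and 4 in females. Summed markers of the proximal tubule were 318077 to 490713 normalized counts per library. The adrenal genes Cyp11b1 and Cyp11b2 were at 0 in every library, but the 6 adrenal markers together had 136.3 to 253.6. Only 1 of these 6 passed the filter on low values, and it was lower in males in both periods. Summed markers of striated muscle reached 352.8 in inactive female replicate 2, against at most 36.1 in the other 23 libraries. Those of brown adipocytes ranged from 11.0 to 712.7, the highest in active male replicate 1, which was the lowest of its group in 25 of the 36 genes. In whole kidney RNA, fewer cells of a type and less RNA per cell cannot be told apart.

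Before the values, 4 promoter stretches are shown because they carry the letters of the element that PPAR alpha and its partner are known to bind, a direct repeat spaced by 1 base. RefSeq windows of GRCm38.p6, from 250 bases before to 50 after a gene's start, were available for 30 of the 36 genes, in 31 windows. The motif AGGTCANAGGTCA was searched on both strands with at most 2 mismatches among its 12 fixed letters, and no other motif was required nearby. It was found in 5 of the 31 windows (16.1%), against 3.86% of all 32851 windows of the same length. The genes were Cd36, Etfa, Fabp1, Plin2 and Slc25a20, and the match of Slc25a20 lay after the start. The 4 other matches are in capitals below, each read 5′ to 3′ along the gene's strand. The capitals are thus the reverse complement of the motif. In Cd36, the fatty acid carrier (chr5:17835931-17835975, minus strand), the match lay 63 to 51 bases before the start. In Etfa, a subunit of the electron transfer flavoprotein (chr9:55512292-55512336, minus strand), it lay 77 to 65 bases before, and in Fabp1, a fatty acid binding protein (chr6:71199796-71199840, plus strand), 67 to 55 bases before. In Plin2, a lipid droplet coat protein (chr4:86670256-86670300, minus strand), it lay 225 to 213 bases before.
Cd36: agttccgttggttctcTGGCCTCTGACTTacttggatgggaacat
Etfa: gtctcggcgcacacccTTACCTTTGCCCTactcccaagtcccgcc
Fabp1: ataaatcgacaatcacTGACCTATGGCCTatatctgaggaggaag
Plin2: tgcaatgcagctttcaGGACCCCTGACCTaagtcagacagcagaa
The match of Fabp1 had 1 mismatch and the others 2. The E-box CACGTG, the element of clock activators, was in 1 of the 31 windows (3.23%), that of Plin2, against 7.15% of all windows. The windows of Ppara and Cpt1a held neither. A match describes letters and is no site of binding. The 4 genes did not move alike, since Cd36, Etfa and Plin2 were higher and Fabp1 was lower in males.

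Levels of different genes were set side by side per kilobase of exon. The length was that of all annotated exons of a gene together, which can exceed that of the transcripts present, so the order is approximate. On this scale the medium-chain dehydrogenase Acadm had the highest mean over all libraries, with 10837 normalized counts per kb. It was followed by the peroxisomal enzyme Ehhadh (9446), Etfa (7989) and the long-chain dehydrogenase Acadl (7320.2). Cd36 came next at 5602. The regulators were far lower, Ppargc1a at 502 and Ppara at 222 per kb. Fabp1 stood at 203 per kb, and Cpt1b, the muscle form of the shuttle enzyme, at 3.61 per kb. The order depended on sex for some genes. Cd36 had 9513 and 9644 per kb in active and inactive males, against 1754 and 1498 in active and inactive females. Fabp1 had 44.2 and 35.4 per kb in active and inactive males, against 422 and 311 in active and inactive females.

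Sex was the larger of the 2 contrasts for these genes, and most of the set was higher in males. In the active period 30 of 36 genes passed between males and females, 23 higher and 7 lower in males, where 60.6% of all tested genes passed (30.1% higher, 30.5% lower). In the inactive period 28 passed, 23 higher and 5 lower, where 55.7% of all genes passed (27.9% higher, 27.8% lower). The shares that passed in either direction were thus above those of all genes, and the split between higher and lower was not even. The median log2 fold of the 36 genes was 0.56 in the active and 0.53 in the inactive period, against -0.05 and -0.04 over all genes. In 26 of the 36 genes the 6 active males did not overlap the 6 active females, where 36.3% of all genes did not. In the inactive period this held for 19 genes, where 32.3% of all genes did not. In both periods 21 genes were higher in males, and Ppara, Ppargc1a, Fabp1 and Acsl1 were lower. Rescaled to equal library totals, the median of all genes shifted to -0.32 in both periods. The split of the 36 genes then became 18 higher and 10 lower in inactive males and 21 higher and 9 lower in active males, while that of all genes became 2635 higher and 8822 lower in active males and 2051 and 9054 in inactive males. Left out one at a time, the 24 libraries gave 29 to 30 genes in the active and 26 to 29 in the inactive period, with 29 and 27 without active male replicate 1 and 29 and 26 without inactive female replicate 2.

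**Figure D1:**
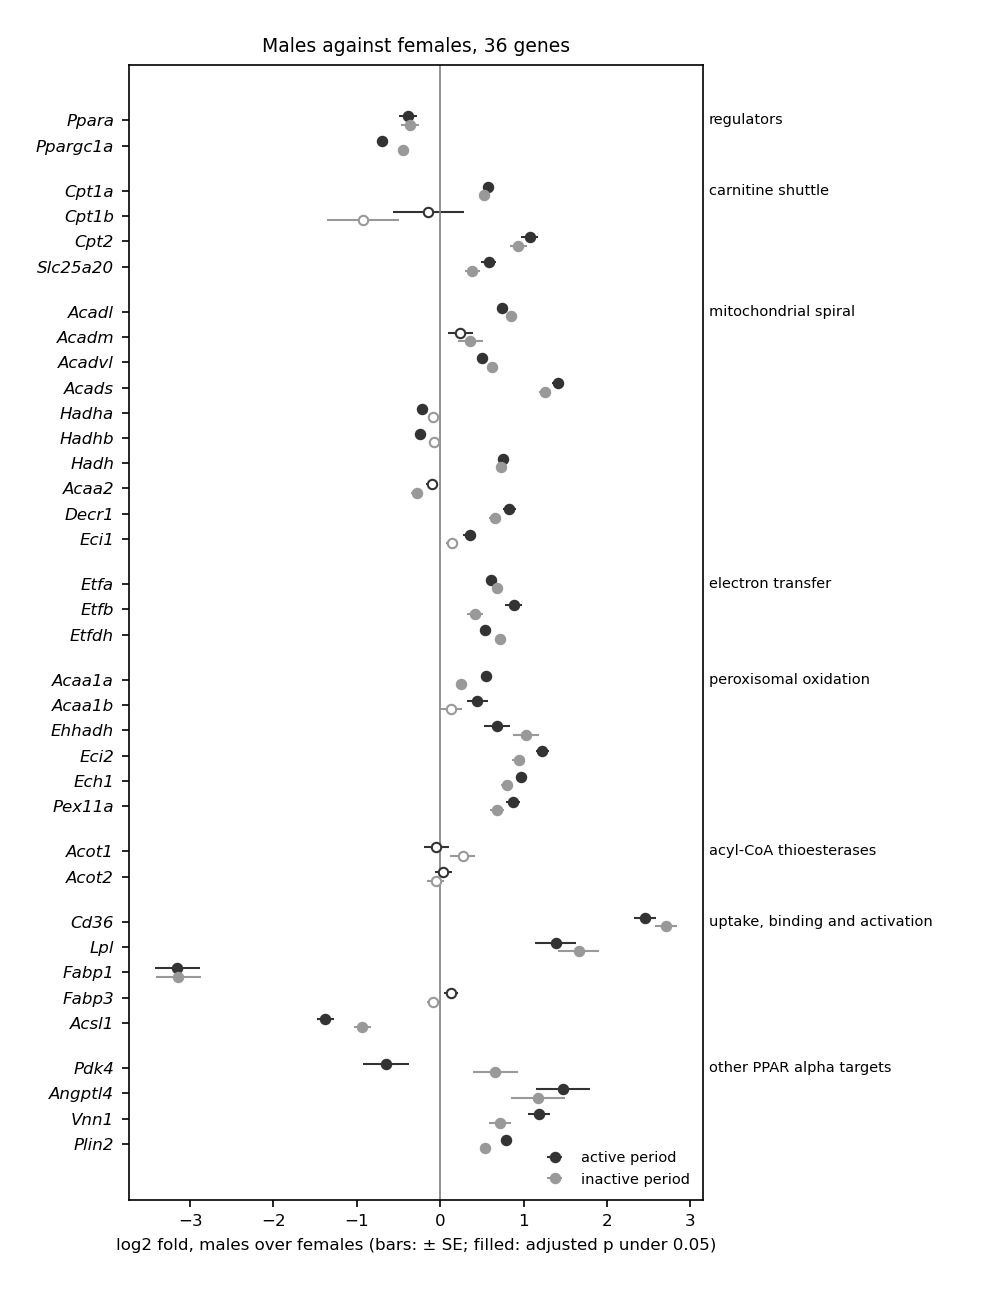
Log2 fold of males over females for the 36 genes by role, in the active (dark) and inactive (grey) period, with bars of ± SE and filled points at an adjusted p under 0.05. Most points lie right of 0, with Cd36 farthest right at 2.46 and 2.70, and Fabp1 farthest left at -3.15 and -3.14.

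The regulators themselves were lower in males. Ppara, the receptor, had 455 to 709.5 (median 622) normalized counts in active males, against 718 to 894 (median 775) in active females. It had 714 to 1112 (median 865) in inactive males, against 974 to 1338 (median 1114) in inactive females. The sexes did not overlap in the active period and overlapped in the inactive one, and the log2 folds were -0.39 ± 0.11 (adjusted p = 0.00297) and -0.37 ± 0.11 (adjusted p = 0.00563). Ppargc1a, a coactivator of mitochondrial genes, had 2279.7 to 2881 (median 2466) in active males, against 3857 to 4886 (median 3921) in active females. In the inactive period it had 2623 to 3015 (median 2803) in males, against 3459.9 to 4059.8 (median 3845) in females. No male library reached any female one, and the log2 folds were -0.70 ± 0.06 (adjusted p = 2.00e-11) and -0.45 ± 0.06 (adjusted p = 1.62e-07). Receptor and coactivator thus fell on the other side of 0 from most of the genes listed as their targets.

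Genes of uptake, binding and activation held the largest differences, in opposite directions. Cd36 had 28815 to 37674 (median 35066) normalized counts in active males, against 4346 to 7906 (median 6198) in active females, and 29703 to 38765 (median 34920.1) in inactive males, against 3888 to 6690.0 (median 5453) in inactive females. Every male library was far above every female one. The ratio of means was 5.42 in the active and 6.44 in the inactive period, with log2 folds of 2.46 ± 0.13 (adjusted p = 5.14e-13) and 2.70 ± 0.13 (adjusted p = 1.26e-13). Lpl, the lipase that frees fatty acids from circulating triglyceride, had 47623 to 75491 (median 69599) in active males, against 17019.9 to 38417 (median 24583) in active females. It had 47016 to 81033 (median 71707) in inactive males, against 13498 to 33855 (median 17839) in inactive females. Again no female library reached a male one, with log2 folds of 1.38 ± 0.24 (adjusted p = 5.23e-05) and 1.66 ± 0.24 (adjusted p = 7.00e-06). Cd36 and Lpl are also genes of endothelium and fat. All 7 endothelial markers were lower in males in both periods, with summed levels of 12217 to 14906 in active males, against 17494 to 23083 in active females. Summed white adipocyte markers overlapped, at 1486 to 4883 in active males, against 1790.0 to 7349 in active females.

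Fabp1, the liver-type fatty acid binding protein, went the other way. It had 18.2 to 34.9 (median 21.9) normalized counts in active males, against 140.0 to 424 (median 213) in active females, and 9.74 to 32.3 (median 16.6) in inactive males, against 94.1 to 221 (median 183) in inactive females. No male library came near a female one. Its mean was 9.55-fold lower in active males and 8.78-fold lower in inactive males, with log2 folds of -3.15 ± 0.27 (adjusted p = 2.88e-11) and -3.14 ± 0.27 (adjusted p = 4.20e-11). Acsl1, which activates long-chain fatty acids, had 6172 to 9060.1 (median 7320.0) in active males, against 16274 to 22033 (median 19890.4) in active females. It had 6049 to 8190.0 (median 7053) in inactive males, against 12392 to 16936 (median 12898) in inactive females. The sexes did not overlap in either period, with log2 folds of -1.38 ± 0.10 (adjusted p = 3.38e-11) and -0.94 ± 0.10 (adjusted p = 3.89e-08). Fabp3, the heart-type binding protein, had 0.13 ± 0.08 and -0.08 ± 0.08 and did not pass in either period (adjusted p = 0.177 and 0.409), but was lower in inactive males at -0.36 with equal totals (0.000531). Its transcripts shared 37.3% of their 50-base words with other genes, mostly a pseudogene, so that its counts are uncertain.

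**Figure D2:**
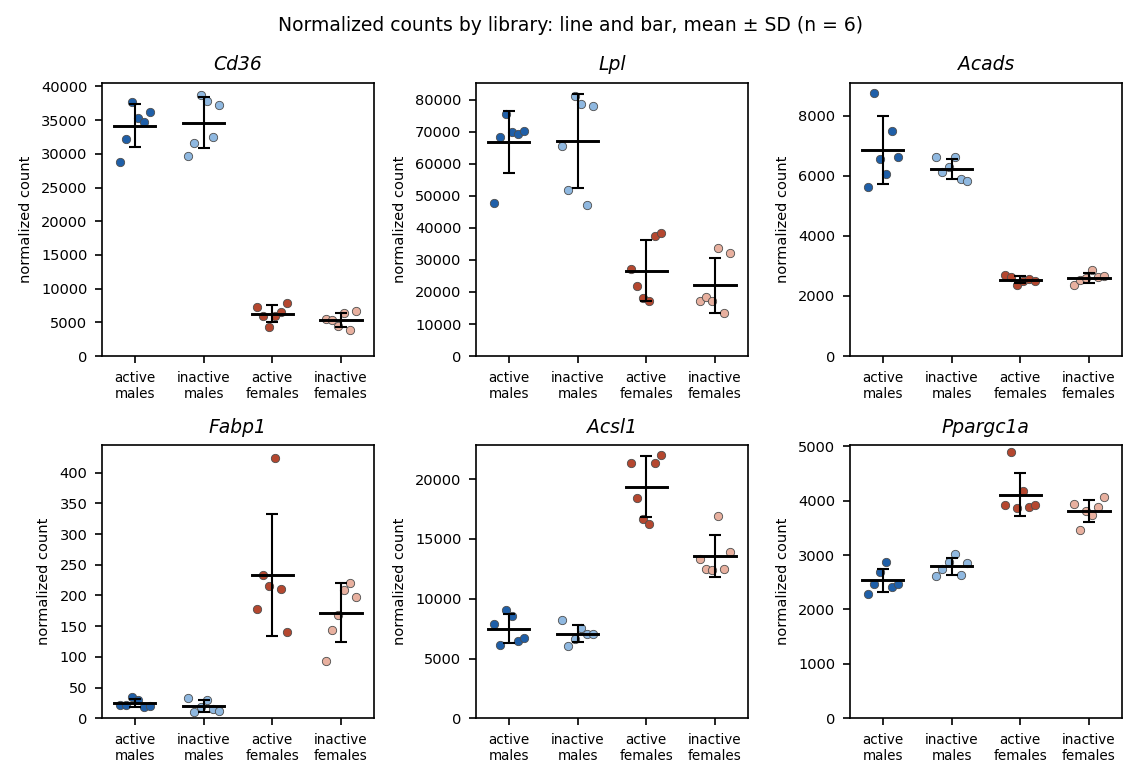
Normalized counts by library for Cd36, Lpl and Acads, higher in males, and Fabp1, Acsl1 and Ppargc1a, lower in males, in active males, inactive males, active females and inactive females. Points are libraries, and lines and bars are mean ± SD of 6. In each panel the male libraries lie wholly above or wholly below the female ones of the same period.

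In the carnitine shuttle, 3 of the 4 genes were higher in males in both periods. Cpt2, the inner membrane transferase, had 4680.1 to 6592 (median 6080.1) normalized counts in active males, against 2484 to 3081 (median 2831) in active females. It had 5098 to 6539 (median 5816) in inactive males, against 2524 to 4009.7 (median 2885) in inactive females. The sexes did not overlap, and the log2 folds were 1.07 ± 0.10 (adjusted p = 1.65e-09) and 0.94 ± 0.10 (adjusted p = 2.24e-08). Cpt1a, the outer membrane transferase that sets the rate of entry, had log2 folds of 0.58 ± 0.06 (adjusted p = 4.42e-09) and 0.53 ± 0.06 (adjusted p = 3.09e-08) between the sexes, also without overlap. Slc25a20, the carrier of acylcarnitine, had 0.58 ± 0.09 and 0.39 ± 0.09 (adjusted p = 5.61e-06 and 0.000954), the second of which did not pass with equal totals (adjusted p = 0.291). Cpt1b had 6.0 to 19.3 (median 12.8) and 2.14 to 18.4 (median 5.99) in active and inactive males, against 6.23 to 22.2 (median 14.7) and 8.81 to 20.45 (median 13.5) in active and inactive females. It did not pass (adjusted p = 0.791 and 0.0668), though it did in the inactive period without inactive male replicate 5 (0.0328) or 6 (0.0190) and, at -1.17, with equal totals (0.0188). It shared 78.6% of its 50-base words with an overlapping gene model.

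Among the dehydrogenases that open each round of the mitochondrial spiral, short-chain Acads differed most. It had 5635 to 8765 (median 6582) normalized counts in active males, against 2374 to 2682 (median 2536) in active females, and 5824 to 6613 (median 6197) in inactive males, against 2361 to 2848 (median 2600.3) in inactive females. Every male library was above every female one, and the log2 folds were 1.42 ± 0.07 (adjusted p = 9.42e-17) and 1.26 ± 0.07 (adjusted p = 1.98e-15). Acadl and the very-long-chain Acadvl were also higher in males without overlap, with log2 folds of 0.74 ± 0.06 and 0.84 ± 0.06 for Acadl and 0.50 ± 0.06 and 0.62 ± 0.06 for Acadvl. Their largest adjusted p was 1.80e-08. Of the words of Acadvl, 26.9% were shared with a neighbouring gene. Acadm, the most abundant, overlapped between the sexes in both periods. It had 37941 to 51119.9 (median 47535) in active males, against 28388 to 51537 (median 42319.8) in active females, with a log2 fold of 0.24 ± 0.15 (adjusted p = 0.180). Inactive males had 39734 to 51602 (median 47405), against 27437 to 49723 (median 34044) in inactive females, with 0.36 ± 0.15 (adjusted p = 0.0479). This call ended without the filter (0.0942), with upper quartile scaling (0.0965), with equal totals (0.617), with edgeR (0.0626) and in 15 of the 24 leave-one-out fits. Those left out were replicates 1 and 2 of active females, 1, 2, 3 and 5 of inactive females, 2 to 6 of active males and 1, 3, 4 and 6 of inactive males, with an adjusted p of at most 0.122.

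The later steps of the spiral did not follow the dehydrogenases as a block. Hadh, the short-chain hydroxyacyl dehydrogenase, was higher in males without overlap, with 21417 ± 1791 normalized counts in active males, against 12729.7 ± 648 in active females (SD, n = 6 each). Its log2 folds were 0.75 ± 0.05 and 0.73 ± 0.05 (adjusted p = 1.29e-13 and 2.75e-13). Decr1, the dienoyl reductase for unsaturated chains, had 0.83 ± 0.08 and 0.66 ± 0.08 (adjusted p = 1.64e-10 and 2.05e-08), also without overlap. Hadha and Hadhb, the 2 subunits of the trifunctional protein that handles long chains, leaned the other way. Hadhb had 6857 to 7356 (median 7093) in active males, against 8088 to 9358 (median 8225) in active females. The sexes did not overlap, with a log2 fold of -0.24 ± 0.04 (adjusted p = 2.60e-05), while Hadha overlapped and had -0.22 ± 0.06 (adjusted p = 0.00190). In the inactive period neither passed (adjusted p = 0.146 for Hadhb and 0.204 for Hadha), but both were lower in males with upper quartile scaling (0.00533 and 0.0134) and with equal totals (8.33e-08 and 2.89e-07). Acaa2, the thiolase of the last step, was lower in inactive males, at -0.27 ± 0.07 (adjusted p = 0.00175), and did not pass in the active period (-0.10 ± 0.07, adjusted p = 0.232) except with upper quartile scaling (0.0314) or equal totals (2.33e-05). Eci1, an isomerase of double bonds, was higher in active males at 0.35 ± 0.08 (adjusted p = 0.000230, but 0.323 with equal totals). It had 0.14 ± 0.08 in inactive males (adjusted p = 0.114) and passed without inactive female replicate 4 (0.0277) or inactive male replicate 2 (0.0320).

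All 3 genes of electron transfer were higher in males in both periods, without overlap. Etfa had 16173 to 19950.0 (median 17712) normalized counts in active males, against 10739 to 12404 (median 11597) in active females, with log2 folds of 0.61 ± 0.05 (adjusted p = 8.00e-12) and, in the inactive period, 0.68 ± 0.05 (adjusted p = 9.34e-13). Etfdh, which passes the electrons to ubiquinone, had 0.53 ± 0.06 and 0.72 ± 0.06 (adjusted p = 3.87e-09 and 9.88e-12). Etfb, the second subunit of the flavoprotein, had 872 to 1598 (median 1052) in active males, against 536 to 665 (median 564) in active females, and 769 to 977 (median 808) in inactive males, against 574 to 692 (median 646) in inactive females. The lowest male library in each period was above the highest female one. Its log2 folds were 0.88 ± 0.10 and 0.42 ± 0.10 (adjusted p = 1.27e-08 and 0.000906), the second of which ended with equal totals (0.193). A gene model that overlaps Etfb shares most of the 44.8% of its words found elsewhere.

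Peroxisomal genes were higher in males, 6 of 6 in the active and 5 of 6 in the inactive period. Ehhadh, the bifunctional enzyme of the spiral in peroxisomes, had 27868 to 39159 (median 34197) normalized counts in active males, against 15453 to 26474 (median 22095) in active females. Its counts were 30398 to 44117 (median 38660.1) in inactive males, against 15094 to 27440.4 (median 16389.9) in inactive females. Males lay above females in both periods, with log2 folds of 0.68 ± 0.16 (adjusted p = 0.000870) and 1.03 ± 0.16 (adjusted p = 1.14e-05). Eci2, an isomerase, had 3906 to 5674 (median 4929) in active males, against 1914 to 2188 (median 2098) in active females, and a log2 fold of 1.22 ± 0.08 (adjusted p = 1.74e-13). The sexes were again apart, as they were for Ech1, another isomerase for unsaturated chains, at 0.97 ± 0.07 and 0.80 ± 0.07 (adjusted p = 3.86e-13 and 4.06e-11). Pex11a, which promotes division of peroxisomes, had 0.87 ± 0.08 and 0.68 ± 0.08 (adjusted p = 9.34e-10 and 1.06e-07). Acaa1a and Acaa1b are closely related thiolases. Of the 50-base words of Acaa1a 12.4% were also in Acaa1b, and of those of Acaa1b 30.5% were in Acaa1a, so reads may be split between them. Acaa1a had log2 folds of 0.55 ± 0.06 and 0.25 ± 0.06 (adjusted p = 2.43e-09 and 0.000756), the second of which became -0.034 with equal totals (adjusted p = 0.639). Acaa1b passed in the active period at 0.44 ± 0.12 (adjusted p = 0.00397, 0.242 with equal totals) and not in the inactive one (0.13 ± 0.12, adjusted p = 0.379).

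Among the other targets of PPAR alpha, Angptl4, Vnn1 and Plin2 were higher in males in both periods. Angptl4, a secreted inhibitor of lipoprotein lipase, had 1288 to 3135 (median 1969) normalized counts in active males, against 422 to 1222 (median 799.6) in active females. The sexes did not overlap in the active period, and did in the inactive one, with log2 folds of 1.47 ± 0.32 (adjusted p = 0.000552) and 1.17 ± 0.32 (adjusted p = 0.00437). Vnn1, which makes pantothenic acid and cysteamine from pantetheine, had 1.18 ± 0.13 and 0.72 ± 0.13 (adjusted p = 1.03e-07 and 9.61e-05). Plin2 had 3124 to 4076 (median 3359) in active males, against 1896 to 2195 (median 2006) in active females. It was apart between the sexes in both periods, at 0.78 ± 0.06 and 0.54 ± 0.06 (adjusted p = 1.70e-12 and 5.79e-09). The thioesterases Acot1 and Acot2, of cytosol and mitochondria, which share words with each other (19.2% and 27.7% of theirs lie in other genes), did not pass. Acot1 had -0.05 ± 0.15 and 0.27 ± 0.15 (adjusted p = 0.803 and 0.140), and passed in the inactive period without inactive female replicate 4 (0.0407) or inactive male replicate 3 (0.0468). Acot2 had 0.04 ± 0.10 and -0.06 ± 0.10 (adjusted p = 0.780 and 0.665), and was lower in males at -0.24 and -0.34 with equal totals (0.0432 and 0.00593).

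Markers of cell types moved with sex as well. Of the 9 markers of the whole proximal tubule, 7 were higher and 2 lower in active males, with summed levels of 431519 to 490713 in active males, against 318077 to 373968 in active females. In the inactive period 6 were higher and 3 lower, with 409380.0 to 437754 in males, against 357528 to 391237 in females. Of the 6 markers of its last segment, S3, 5 were higher and 1 lower in active males and 4 higher and 1 lower in inactive males. Their sums were 118739 to 137534 in active males, against 20347 to 31605 in active females. The early segments, S1 and S2, were split otherwise. Of their 6 markers, 1 was higher and 3 lower in active males, and 1 higher and 4 lower in inactive males. Their sums were still 69039 to 79818 in active males, against 45939.5 to 65043 in active females. All 5 podocyte markers were lower in males, with sums of 8678 to 10321 in active males, against 16419.7 to 17839 in active females. The part of these shifts in the differences between the sexes was not tested.

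Other genes of the pathway, taken from 5 lists, leaned the same way in most of its branches. Of the 93 genes on them, 89 passed the filter on low values, and of these 53 were higher and 17 lower in active males, and 48 higher and 13 lower in inactive males. Of all genes, 30.1% were higher and 30.5% lower in active males, and 27.9% higher and 27.8% lower in inactive males. Among 19 other peroxisomal genes 14 were higher and 2 lower in active males. Amacr, the racemase for branched chains, had 10608 to 15102 (median 14301) normalized counts in active males, against 1900.2 to 2619.6 (median 2307) in active females, with no overlap and a log2 fold of 2.58 ± 0.09 (adjusted p = 8.39e-19). Phyh, which starts the breakdown of phytanic acid, had 1.26 ± 0.05 and 1.27 ± 0.05 (adjusted p = 2.93e-19 and 2.73e-19). Of 20 other mitochondrial and ketone body genes, 15 were higher and 3 lower in active males, among them Mlycd, which breaks down the shuttle inhibitor malonyl-CoA, at 1.19 ± 0.07 (adjusted p = 3.98e-15). Of 22 other genes of uptake, activation and droplets, 10 were higher and 4 lower in active males. Of this list 63.6% passed in the active and 54.5% in the inactive period, near the 60.6% and 55.7% of all genes. Its median log2 fold was -0.10 in active males, with 12 of the 22 folds below 0, so as a whole it did not lean to males. In inactive males the carrier Slc27a2 had 0.90 ± 0.06 (adjusted p = 3.51e-14) and the synthetase Acsl4 -0.62 ± 0.06 (adjusted p = 7.14e-10). Of 14 receptors and coregulators, 5 were higher and 5 lower in active males, among them the partner receptor Rxra at 0.49 ± 0.05 (adjusted p = 1.10e-09). In the list of Cyp4a omega-hydroxylases and other targets, 9 of 14 were higher and 3 lower in active males. The members Cyp4a12a and Cyp4a14 are named after their values were seen. Cyp4a12a had 7814 to 13062 (median 9035) in active males, against 46.7 to 279 (median 119) in active females, and Cyp4a14 had 771 to 5371 (median 1823) in active males, against 13225 to 24609 (median 23055) in active females. The log2 folds were 6.43 ± 0.33 (adjusted p = 7.54e-13) and -3.33 ± 0.51 (adjusted p = 9.95e-06), so that 2 omega-hydroxylases of 1 family stood far apart in opposite directions.

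The period moved far fewer of the 36 genes. In males 4 passed between the active and inactive period, Etfb and Plin2 higher and Ppara and Cpt1a lower in active males, where 15.4% of all genes passed (8.43% higher, 6.95% lower). In females 7 passed, Hadhb and Acsl1 higher and Ppara, Cpt1a, Acaa1a, Fabp3 and Vnn1 lower in active females, where 15.0% of all genes passed (7.97% higher, 6.98% lower). The share in males was below that of all genes and the share in females a little above it. The groups did not overlap in 2 of 36 genes in males, where 4.29% of all genes did not, and in 5 of 36 in females, where 7.83% did not. The median log2 fold was 0.03 in males and -0.01 in females, against 0.01 and -0.00 over all genes. In males 8 of 36 genes had an unadjusted p under 0.05 and in females 11, and the share of all genes at that looser threshold is not given here. With upper quartile scaling and with equal totals the split in males was 1 higher and 3 lower, and in females it was 1 and 5 with upper quartile scaling and 1 and 6 with equal totals. Without inactive female replicate 2 the 7 female calls remained.

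**Figure D3:**
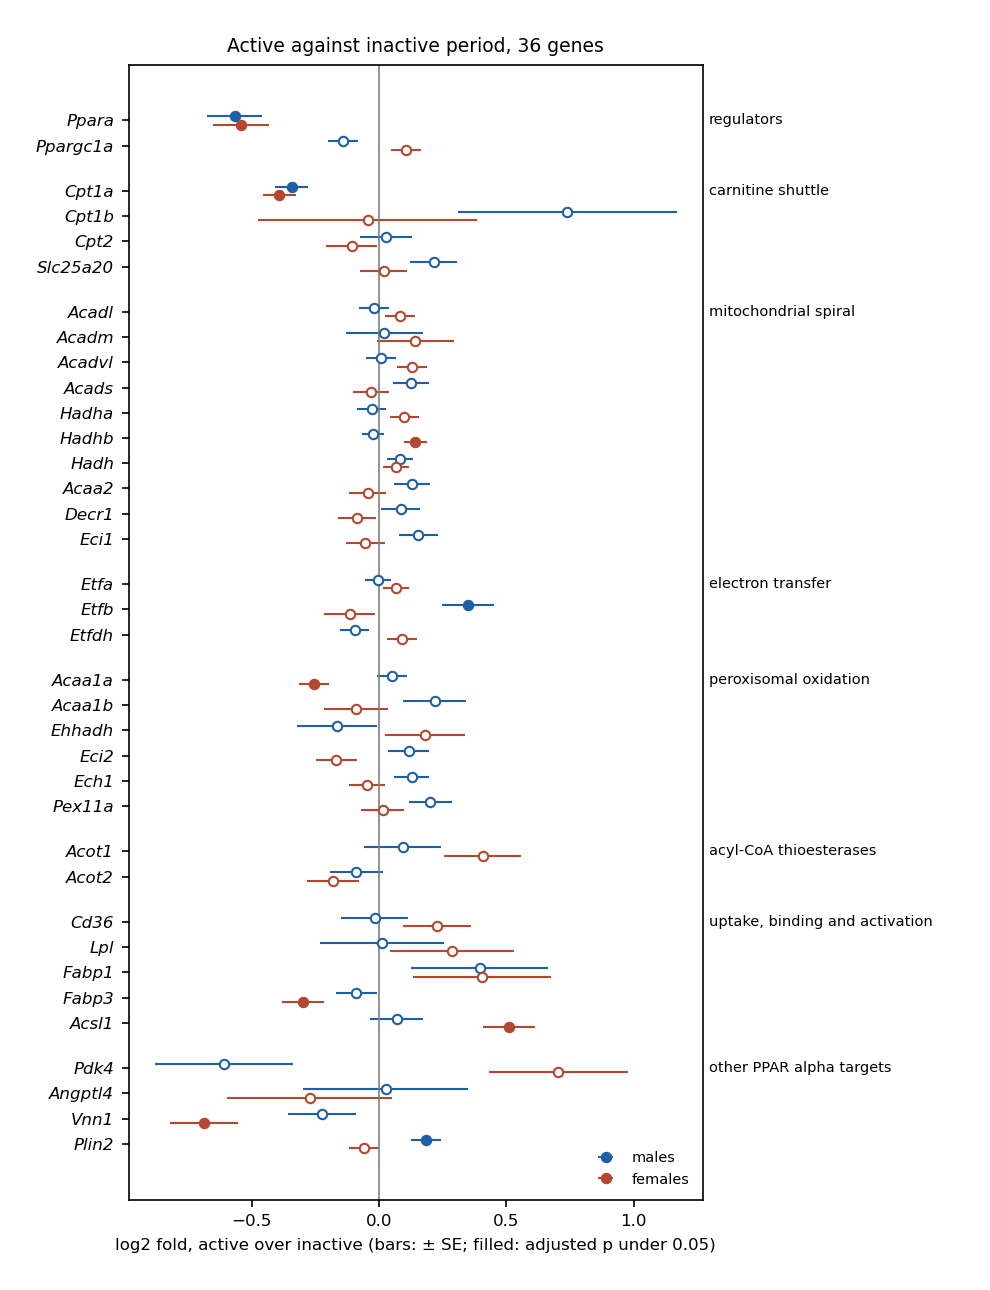
Log2 fold of the active over the inactive period for the 36 genes by role, in males (blue) and females (red), with bars of ± SE and filled points at an adjusted p under 0.05. Ppara and Cpt1a lie left of 0 in both sexes, and Pdk4 lies on opposite sides, at -0.61 in males and 0.70 in females.

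Ppara and Cpt1a were the genes that passed in both sexes. Ppara had 455 to 709.5 normalized counts in active males, against 714 to 1112 in inactive males, and 718 to 894 in active females, against 974 to 1338 in inactive females. Neither sex had an overlap between the periods. Its male and female changes differed by -0.02 ± 0.15 (adjusted p = 0.952). Cpt1a had 13163 to 15404 (median 14158) in active males, against 16294 to 20263 (median 18154) in inactive males. In females it had 8791 to 10376 (median 9549) in the active period, against 11091 to 14399 (median 12611) in the inactive one. The periods were apart in each sex, and the changes differed by 0.05 ± 0.09 (adjusted p = 0.818). The order of Cpt1a over the 4 groups was inactive males, active males, inactive females and active females, from high to low. For Ppara it was inactive females, inactive males, active females and active males, so both had higher levels in the inactive period and opposite levels by sex. In Ppara the neighbours overlapped except active females and active males, and in Cpt1a none did except active males and inactive females, at 13163 to 15404 and 11091 to 14399.

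In females 3 more genes were lower in the active period. Vnn1 had 1777 to 3058 (median 2396) normalized counts in active females, against 3157 to 5286 (median 3629) in inactive females, with no overlap and a log2 fold of -0.69 ± 0.13 (adjusted p = 0.00105). In males its change was -0.22 ± 0.13 (adjusted p = 0.270), and the difference between the sexes did not pass (0.46 ± 0.19, adjusted p = 0.185). Fabp3 had 1362 to 1798 (median 1607) in active females, against 1735 to 2123 (median 1968) in inactive females. These overlapped, with -0.30 ± 0.08 (adjusted p = 0.0113), and in males the change was -0.09 ± 0.08 (adjusted p = 0.495). Acaa1a had 2208 to 2507 (median 2439) in active females, against 2597 to 3223 (median 2825) in inactive females, and 3280.5 to 4132 (median 3341) in active males, against 3164 to 3619.6 (median 3441) in inactive males. The female groups did not overlap and the male ones did, with log2 folds of -0.25 ± 0.06 (adjusted p = 0.00295) in females and 0.05 ± 0.06 (adjusted p = 0.596) in males.

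Acaa1a was the 1 gene of the 36 whose change passed the test of a difference between the sexes, where 2.71% of all genes passed (1.41% higher, 1.30% lower). In this limma test 10 of 36 had an unadjusted p under 0.05. The share of all genes at that looser threshold is not given here, so the 10 cannot be set against the 2.71%. The change of Acaa1a in males minus that in females was 0.31 ± 0.08 (adjusted p = 0.0415). The call ended without the filter on low values (0.0717), with a plain variance prior (0.0766) and in 14 of the 24 leave-one-out fits, with an adjusted p of at most 0.0810. Those left out were replicates 1, 4, 5 and 6 of active females, 2, 3, 4 and 5 of inactive females, 2 and 5 of active males and 3, 4, 5 and 6 of inactive males.

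Acsl1 and Hadhb were higher in active females. Acsl1 had 16274 to 22033 (median 19890.4) normalized counts in active females, against 12392 to 16936 (median 12898) in inactive females. A single inactive library, replicate 4 at 16936, reached into the active range. The log2 fold was 0.51 ± 0.10 (adjusted p = 0.00116), and in males it was 0.07 ± 0.10 (adjusted p = 0.703). The difference between the sexes, -0.44 ± 0.15, did not pass (adjusted p = 0.0954), but did with DESeq2 (0.0380) and without inactive female replicate 4 (0.0455). Hadhb had 8088 to 9358 (median 8225) in active females, against 7175 to 8009 (median 7652) in inactive females, without overlap, and a small log2 fold of 0.14 ± 0.04 (adjusted p = 0.0278). That call ended with upper quartile scaling (0.0576) and equal totals (0.107), and without active female replicate 4 (0.0994) or inactive female replicate 1 (0.0694) or 3 (0.0786). Pseudogenes hold most of the 19.7% of its words found elsewhere.

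In males Etfb and Plin2 were higher in the active period. Etfb had 872 to 1598 (median 1052) normalized counts in active males, against 769 to 977 (median 808) in inactive males. The groups overlapped, and active replicate 2, at 1598, stood above all other libraries. The log2 fold was 0.35 ± 0.10 (adjusted p = 0.0192), which was not called without that library (0.0601) or in a fit of the male libraries alone (0.0697). For Etfb the difference between the sexes in this change did not pass with limma on all libraries. It did with equal totals (0.0389) and DESeq2 (0.0320), and without active male replicate 1 (0.0277) or 4 (0.0456). Plin2 had 3124 to 4076 (median 3359) in active males, against 2781 to 3199 (median 3122) in inactive males, with overlap and a log2 fold of 0.18 ± 0.06 (adjusted p = 0.0340). It was not called in 6 of the 13 alternative settings, with an adjusted p of up to 0.0751, nor without active male replicate 2 (0.0823) or 5 (0.109) or inactive male replicate 2 (0.0747) or 6 (0.0750). Left out one at a time, the libraries gave 2 to 6 genes in males, with 2 without active male replicate 2 and 6 without active male replicate 1. Ech1 (0.0456) and Pex11a (0.0288) were the ones gained in the last of these, from 0.13 ± 0.07 and 0.20 ± 0.08 with all libraries (adjusted p = 0.212 and 0.106).

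**Figure D4:**
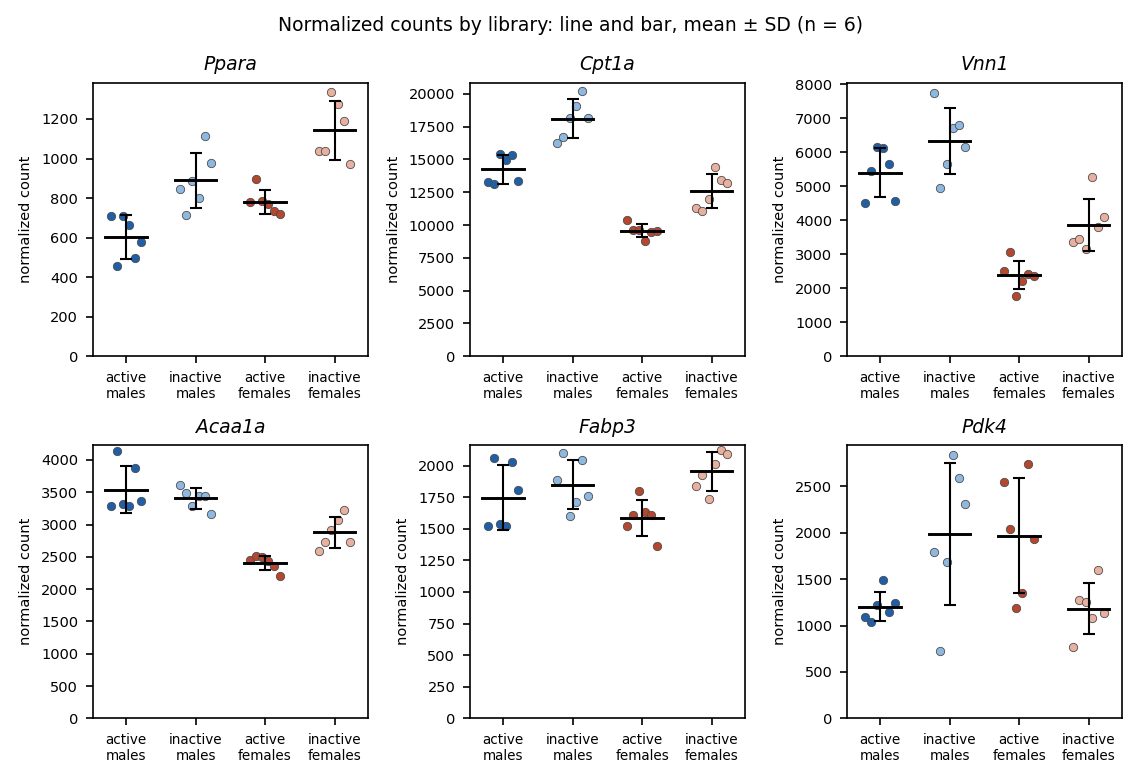
Normalized counts by library for Ppara, Cpt1a, Vnn1, Acaa1a, Fabp3 and Pdk4 in active males, inactive males, active females and inactive females, with lines and bars of mean ± SD of 6. Ppara and Cpt1a are lower in the active period in both sexes without overlap, Vnn1 and Acaa1a without overlap in females, and Pdk4 is spread widely in inactive males and active females.

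Pdk4, the kinase that turns off pyruvate dehydrogenase and so spares glucose, had 1041 to 1491 (median 1182) normalized counts in active males, against 724 to 2838 (median 2051) in inactive males. In females it had 1187 to 2741 (median 1987) in the active period, against 765 to 1595 (median 1189) in the inactive one. Active males and inactive females were low and narrow, while inactive males and active females were high and broad, and every pair of groups overlapped. Against females it was lower in active males, at -0.65 ± 0.27 (adjusted p = 0.0443), and higher in inactive males, at 0.66 ± 0.27 (adjusted p = 0.0453). The change with period was -0.61 ± 0.27 in males and 0.70 ± 0.27 in females, neither past the test with limma (adjusted p = 0.136 and 0.0910). With DESeq2 both passed (0.0330 and 0.0285), and the change in females also did with library weights (0.0332) and without active female replicate 3 (0.0487). The difference between these changes, -1.31 ± 0.39, did not pass with limma (adjusted p = 0.0694), but did with library weights (0.0378), edgeR (0.0352) and DESeq2 (0.00415), and without active female replicate 3 (0.0473) or inactive male replicate 2 (0.00788). That male library held 724, the lowest of all 24, and without it the change in males passed as well (0.00821), as did that in females (0.0219). The call in active males ended without the filter (0.0824) and in 15 of the 24 leave-one-out fits, with an adjusted p of at most 0.105, and that in inactive males ended in 4 alternative settings and 16 leave-one-out fits, with at most 0.219 and 0.113. In the active period the libraries left out were replicates 1, 2, 5 and 6 of active females, 2, 3, 4 and 6 of inactive females, 1, 2, 3, 5 and 6 of active males and 1 and 3 of inactive males. In the inactive period they were replicates 2 and 6 of active females, 1, 2, 3, 4 and 6 of inactive females, 1, 3, 5 and 6 of active males and 1, 3, 4, 5 and 6 of inactive males.

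The other genes named for the period stood as follows. Acot1 had 0.41 ± 0.15 in females (adjusted p = 0.0767) and passed with the female libraries fitted alone (0.0273), with library weights (0.0234) and without inactive female replicate 4 (0.0236). Ppargc1a had -0.14 ± 0.06 in males (adjusted p = 0.0983) and passed with upper quartile scaling (0.0463), equal totals (0.0376) and without active male replicate 4 (0.0343). The genes of uptake with the largest sex difference, Cd36 and Lpl, had changes of -0.02 ± 0.13 and 0.01 ± 0.24 in males and 0.23 ± 0.13 and 0.29 ± 0.24 in females, none past the test (smallest adjusted p = 0.288). Among the segment markers of the early proximal tubule, S1 and S2, 3 of 6 were lower in the active period in each sex. Their sums were 69039 to 79818 in active males, against 71826 to 83528 in inactive males, and 45939.5 to 65043 in active females, against 68346 to 77465 in inactive females. Other marker lists moved with the period too. Of the 9 markers of the whole proximal tubule, 4 were higher in active males and 2 lower in active females. Of the 7 endothelial markers, 4 were higher in active males and 3 in active females, with sums of 12217 to 14906 in active males, against 8285 to 14079 in inactive males, and 17494 to 23083 in active females, against 14645 to 20441 in inactive females. Of the 5 markers of intercalated cells, 3 were higher and 1 lower in active females, and in males none passed with limma, with 2 at an unadjusted p under 0.05. The part of these lists in the changes with period was not tested.

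Of the 89 other pathway genes, 4 were higher and 11 lower in active males, where 15.4% of all genes passed (8.43% higher, 6.95% lower). In active females 10 of the 89 were higher and 14 lower, where 15.0% of all genes passed (7.97% higher, 6.98% lower). The share that passed in either direction was thus close to that of all genes in males and above it in females. The clearest of these pathway genes was the sister receptor Ppard, which moved against Ppara. It had 631 to 1256 (median 1135) normalized counts in active males, against 274 to 440.3 (median 389) in inactive males, and 958 to 2045 (median 1462) in active females, against 284 to 408 (median 375) in inactive females. The periods did not overlap in either sex, with log2 folds of 1.37 ± 0.20 (adjusted p = 9.60e-05) and 1.98 ± 0.20 (adjusted p = 3.79e-07). Ppargc1b, the sister of the coactivator, was lower in active males at -0.56 ± 0.13 (adjusted p = 0.00487) and in active females at -0.55 ± 0.13 (adjusted p = 0.00427). Dgat2, which makes triglyceride, was lower in the active period at -0.25 ± 0.06 in males and -0.44 ± 0.06 in females (adjusted p = 0.00353 and 1.39e-06). The peroxisomal reductase Decr2 had 1653 to 2142 (median 1795) in active females, against 2579.6 to 3029 (median 2717) in inactive females, with no overlap. It changed by -0.61 ± 0.07 in females (adjusted p = 1.82e-07) and -0.13 ± 0.07 in males (adjusted p = 0.192), and the difference of 0.47 ± 0.10 passed (adjusted p = 0.00876). Of the 89 genes 6 passed this test of a difference, where 2.71% of all genes passed. The change in males was higher for 4, Acot3 (0.83), Slc25a34 (0.69), Decr2 and Pecr (0.39). It was lower for 2, Acadsb (-0.33) and Oxct1 (-0.28). Acot3 is a peroxisomal thioesterase, Slc25a34 a mitochondrial carrier, Pecr a peroxisomal reductase, Acadsb a dehydrogenase of branched chains and Oxct1 the enzyme of ketone body use.

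Within groups the 36 genes varied by a median coefficient of variation of 10.5% in active males, 10.4% in inactive males, 8.15% in active females and 12.5% in inactive females. It was over 20% in 5, 7, 7 and 10 genes in that order. In females a set of genes was high in the same libraries, a pattern chosen after the values were seen. The share of all genes high in those libraries is not given here, so the pattern cannot be called particular to these genes. Replicates 1, 5 and 6 of active females and 4 and 6 of inactive females were the highest of their group in 7 of the 36 genes, Acadm, Decr1, Eci1, Ehhadh, Cd36, Lpl and Acsl1, and in 3 of 93 other pathway genes. Lpl had 27164, 37509.5 and 38417 in those 3 active female libraries, and 22001, 17984 and 17019.9 in replicates 2, 3 and 4. Acadm had 44368, 49179 and 51537 there, and 40271, 28388 and 29082 in the others. Of inactive females, replicates 4 and 6 had 33855 and 32234 of Lpl, and the other 4 between 13498 and 18411. Summed white adipocyte markers did not follow this order. They were highest in active female replicate 4 (7349), the lowest library for Lpl in its group, and in inactive female replicate 2 (6525), and stood at 2042 to 3730.1 in the 5 libraries high in Lpl. Sums of some other lists did peak in these 5 libraries. Those of the whole proximal tubule were highest in active female replicate 5 (373968) and inactive female replicate 6 (391237). Those of S3 were highest in active female replicate 6 (31605) and inactive female replicate 4 (30207). Podocyte and endothelial sums peaked elsewhere, in replicates 2 and 4 of active and 3 and 1 of inactive females. The part of cell types in this pattern was not tested.

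**Figure D5:**
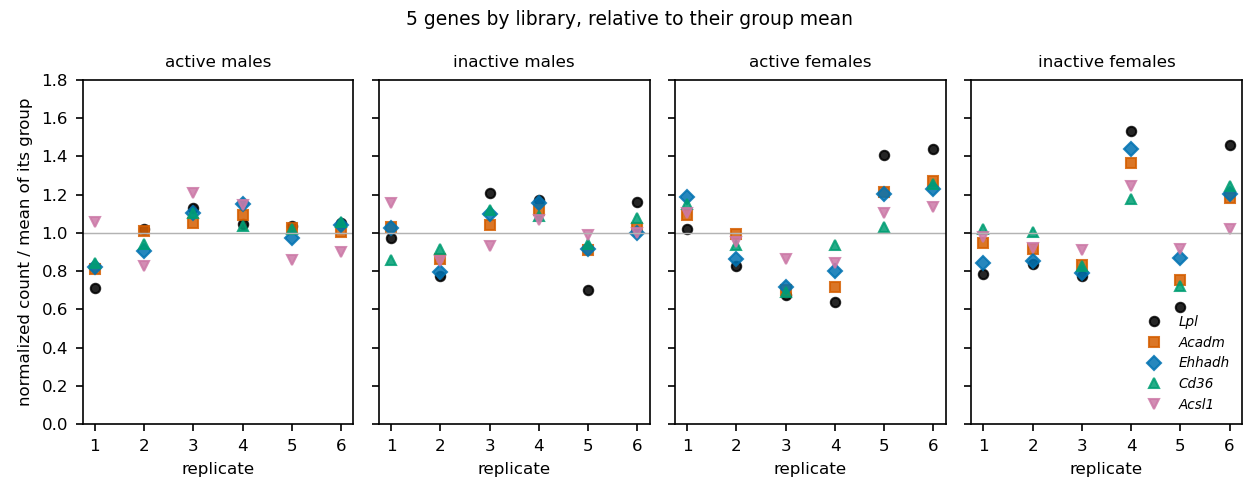
Normalized count of Lpl, Acadm, Ehhadh, Cd36 and Acsl1 in each library divided by the mean of its group, for active males, inactive males, active females and inactive females. In active females replicates 1, 5 and 6 and in inactive females replicates 4 and 6 lie above 1 for all 5 genes, with Lpl spread widest.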

How the data were processed

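Total RNA of mouse kidney was sequenced after poly A selection, per the labels' protocols. The deposited signal is gene counts that the authors divided by 1 size factor per library. DESeq2 1.28.1, featureCounts, Subread 2.0.6, Trim Galore 0.6.10 and the build GRCm39 stand in the submitters' processing notes. The strand setting and annotation release are unknown here, so overlapping and antisense genes cannot be told apart. All values above 0 were whole reads within 0.05 after division by each library's step.

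Genes with a mean of at least 10 (17333) were fitted as log2 of the value plus 1 in 24 libraries by limma 3.58.1 (R 4.3.3) under a robust, trended prior, leaving 20 residual degrees of freedom. The 5 contrasts were males against females in each period, active against inactive in each sex, and the difference between the changes of males and females. Each contrast had its own Benjamini-Hochberg adjustment. Symbols, exon lengths and shared 50-base words came from GENCODE M21, and promoters from RefSeq. The 36 genes and all lists were chosen with earlier results of these data known. Named are all 36 genes and, of each pathway list, up to 3 called genes with the smallest p per contrast, save any not reported here. Title numbers were not used to pair libraries, since the labels do not say what they mean. Same-numbered male and female libraries of a period correlated at -0.10 to 0.12 over 12 pairs. Such weak correlations cannot exclude a pairing. Alternatives were pseudocounts of 0.5 and 5, no filter and a filter of 50, scaling by TMM, upper quartile or equal totals, the 2 groups alone, library weights, a plain prior, edgeR 4.0.16 and DESeq2 1.42.0 on recovered reads, a block, and each library left out. The tests were tried on simulated data.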

Additional observations from a re-analysis of the deposited data

Results flagged for a closer look

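Of 144 sets of 6 libraries (36 genes in 4 groups), 10 held a library that stood apart from the others by a gap of more than 0.625 of the range, and chance flags about 1 in 20. In active males, replicate 1 was low in Acadm (37941, next 46892), Pex11a (2766, next 3322) and Lpl (47623, next 68274), and replicate 2 was high in Etfb (1598, next 1108). In active females, replicate 2 was high in Ppargc1a (4886, next 4179.8), replicate 3 low in Acadl (10144, next 11075), and replicate 4 high in Hadhb (9358, next 8341) and Fabp1 (424, next 234). In inactive females, replicate 4 was high in Ech1 (9627, next 8098) and Acsl1 (16936, next 13881). The change of Acaa1a with the period differed between males and females by 0.31 on the log2 scale (limma, adjusted p = 0.0415).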

How the results depend on the processing

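Counts of called genes among the 36 were within 1.5 times the count given in every alternative for females by period and for sex in both periods, at 6 to 10, 29 to 31 and 26 to 28. Leave-one-out counts there were 6 to 8, 29 to 30 and 26 to 29. For the period in males (4 with all libraries) the male libraries fitted alone gave 2, and leaving out a library 2 to 6. For the difference between the sexes in the change with period (1 called), limma gave 0 without the filter and 0 with a plain prior, where 10 of 36 had an unadjusted p under 0.05 with the filter, and 2 with equal totals, 2 with library weights, 2 with edgeR and 4 with DESeq2. Leaving out a library gave 0 to 3. Over all genes that count was 247 without the filter, 289 with a plain prior and 937 with DESeq2 (470 as given), and for the period in males 1756 with males alone (2665 as given). With equal totals Acaa1a in inactive males turned to -0.034 and Acot2 in active males to -0.24. With upper quartile scaling the split of all genes by period was 1181 higher and 1521 lower in males and 1199 and 1415 in females, and with equal totals 1130 and 1458 and 1019 and 1570.0. The replicate block of title numbers gave 7, 4, 1, 30 and 28 calls, as without it. Among the 6 libraries of the other sex in the same period, 9 of 24 libraries correlated best with their own number. Chance alone would give about 1 in 6. The cause of these changes was not tested. Of 6618 values over alternatives 6480 kept direction and side of the threshold, 92 lost a call, 44 gained one and 2 turned. Depth limits Cpt1b, with a mean of at most 14.0 normalized counts in a group.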

Other observations

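In males another set of genes was high in the same libraries, noticed after the values were seen. The share of all genes high in those libraries is not given here. Replicates 3 and 4 of active males and 1 and 4 of inactive males were the highest of their group in 3 of the 36 genes, Acot1, Fabp1 and Acsl1, and in 6 of 93 other pathway genes. One of these was the omega-hydroxylase Cyp4a14, with 4816 and 5371 normalized counts in those active males and at most 1989.5 in the other 4, and 6015 and 8369.6 in those inactive males and at most 1577 in the other 4.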
